A study of Mus musculus with 31 samples.

Results

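The 20 embryos described here were the 10 highest and the 10 lowest of 29 mouse 2-cell embryos ranked by a burst score, out of 31 sequenced embryos in all. The score of an embryo was its mean log2(CPM + 1), with CPM the counts per 1000000 of the library total, over 8 genes of the 2-cell burst, namely Zscan4c, Zscan4d, Zscan4f, Zfp352, Tdpoz3, Tdpoz4, Tcstv1 and Tcstv3. The embryos were therefore chosen by measured values of these 8 genes, whose differences between the classes are described below without a test. Control replicate 4 and SER replicate 15 were left out before ranking by the rule that set the classes. Their scores, 1.55 and 2.25, were below those of every ranked embryo.

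Each library held the polyadenylated RNA of a single wild-type embryo collected at 32 hours post insemination (HPI). Oocytes of superovulated CD1 females of 8 to 10 weeks were fertilized in vitro with sperm of C57BL/6J males of 12 to 14 weeks. In the 15 SER (sperm energy restriction) embryos, the sperm had first been held without glucose and pyruvate until they stopped moving, which took 15 to 45 minutes, and had then been given both again, whereas the 16 control embryos came from sperm kept in complete medium. The labels do not say which embryos shared a male, a female or a sequencing batch, so p-values measure the spread between these embryos, and a batch and a score class cannot be told apart. Each value is a share of 1 embryo's RNA, in which fewer expressing cells and less RNA per cell cannot be told apart either.

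In the mouse, the embryonic genome is switched on in a minor wave late in the 1-cell stage and a major wave at the 2-cell stage, while the stored maternal RNA of the oocyte is degraded. The minor wave includes a short burst of genes, many in multicopy clusters, that is shut off again before the next cleavage. The transcription factor Dux can activate part of this burst, Zscan4 proteins act at telomeres and chromatin, Zfp352 encodes a zinc-finger protein, Tdpoz genes encode BTB-domain proteins, and Tcstv genes are expressed almost solely in 2-cell embryos and 2-cell-like cells.

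The promoters of the 3 Zscan4 scoring genes and of AF067061, a burst gene that differed between the classes, are shown because they carry or nearly carry the core of the Dux motif, TGATTNAAT, here searched on both strands and printed in capitals. They are RefSeq windows of GRCm38.p6, from 250 bases before to 50 bases after the start, written in the direction of transcription. Zscan4c lies at chr7:11005495-11005794 (+), Zscan4d at chr7:11166099-11166398 (−), Zscan4f at chr7:11397665-11397964 (+) and AF067061 at chr13:120262845-120263144 (+).
Zscan4c: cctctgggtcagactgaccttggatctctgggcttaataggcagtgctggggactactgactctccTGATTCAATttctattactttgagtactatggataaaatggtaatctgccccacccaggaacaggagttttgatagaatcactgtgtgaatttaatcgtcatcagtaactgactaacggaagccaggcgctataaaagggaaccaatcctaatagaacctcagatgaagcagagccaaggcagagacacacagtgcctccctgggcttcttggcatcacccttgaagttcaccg
Zscan4d: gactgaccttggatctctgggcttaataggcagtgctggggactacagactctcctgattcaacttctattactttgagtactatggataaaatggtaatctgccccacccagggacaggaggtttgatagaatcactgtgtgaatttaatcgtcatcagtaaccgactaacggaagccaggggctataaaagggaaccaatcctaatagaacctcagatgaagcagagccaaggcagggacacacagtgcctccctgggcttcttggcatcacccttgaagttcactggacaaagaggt
Zscan4f: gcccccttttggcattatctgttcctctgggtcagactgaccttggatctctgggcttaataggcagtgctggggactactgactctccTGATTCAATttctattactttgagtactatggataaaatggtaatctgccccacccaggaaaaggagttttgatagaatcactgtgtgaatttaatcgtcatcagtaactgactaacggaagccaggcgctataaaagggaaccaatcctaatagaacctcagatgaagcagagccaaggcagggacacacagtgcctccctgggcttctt
AF067061: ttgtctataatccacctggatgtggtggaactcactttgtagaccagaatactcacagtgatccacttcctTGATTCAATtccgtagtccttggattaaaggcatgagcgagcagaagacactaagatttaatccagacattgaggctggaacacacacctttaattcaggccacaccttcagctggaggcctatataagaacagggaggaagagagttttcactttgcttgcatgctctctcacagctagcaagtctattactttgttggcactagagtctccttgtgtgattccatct
The Zscan4c and Zscan4f windows shared a run of 127 identical bases, and all 3 Zscan4 windows shared 55. Only Zscan4c, Zscan4f and AF067061 of these 4 windows held the letters. Of all genes with a window, 103 of 16113 (0.639%) held them, against 2 of the 5 scoring genes with a window, 1 of 81 genes called higher in high-scoring embryos and 0 of 11 called lower. A match is a description of letters and no evidence of binding.

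The windows of Obox1 and Obox5, homeobox genes of the oocyte and early embryo that were both called higher in high-scoring embryos, are shown because they shared 82 consecutive bases, printed in capitals. Obox1 lies at chr7:15547007-15547306 (+) and Obox5 at chr7:15750120-15750419 (+).
Obox1: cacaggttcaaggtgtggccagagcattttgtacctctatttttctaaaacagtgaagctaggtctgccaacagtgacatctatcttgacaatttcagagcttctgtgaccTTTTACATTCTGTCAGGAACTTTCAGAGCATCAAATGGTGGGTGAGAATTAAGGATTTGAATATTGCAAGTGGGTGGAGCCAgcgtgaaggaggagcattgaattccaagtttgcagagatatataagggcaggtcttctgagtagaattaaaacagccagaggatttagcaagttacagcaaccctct
Obox5: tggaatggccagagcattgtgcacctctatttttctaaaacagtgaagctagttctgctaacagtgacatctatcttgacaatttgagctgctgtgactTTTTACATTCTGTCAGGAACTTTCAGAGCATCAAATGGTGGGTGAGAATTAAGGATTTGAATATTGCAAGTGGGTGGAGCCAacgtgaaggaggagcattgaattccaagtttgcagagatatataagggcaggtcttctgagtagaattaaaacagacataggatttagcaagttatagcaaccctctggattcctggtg

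High-scoring embryos had scores of 5.49 to 6.26 and low-scoring embryos 3.88 to 4.73. SER replicate 12 at 5.49 was the last embryo inside the high class, and control replicate 9 at 5.36 was the first outside it. SER replicate 10 at 4.73 was the last inside the low class, and control replicate 12 at 4.83 was the first outside. The 2 embryos left out of the ranking scored 1.55 and 2.25. The ranking was continuous, with no gap separating either class from the 9 middle embryos.

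**Figure D1:**
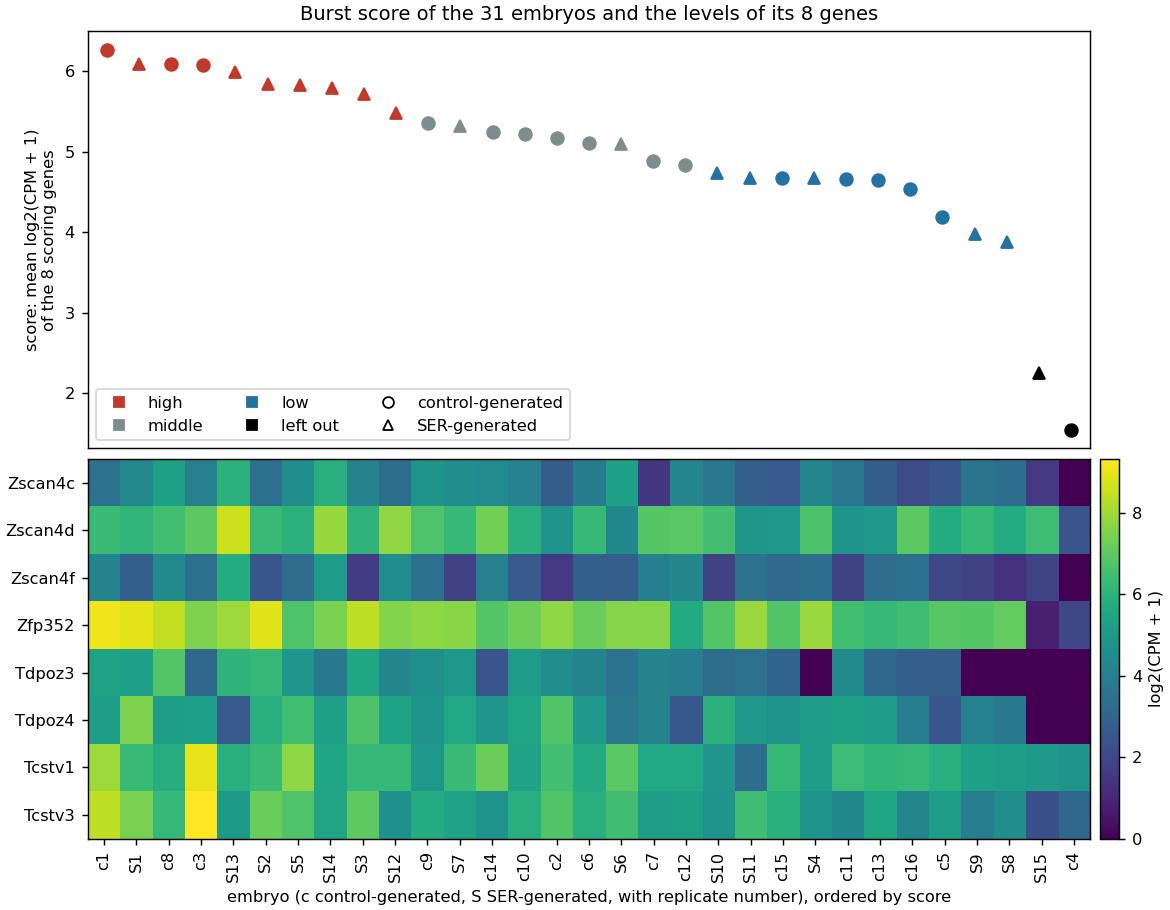
Burst score of every embryo, in mean log2(CPM + 1) over the 8 scoring genes, ordered by score and coloured by score class, with marker shapes for treatment. The 10 high-scoring embryos reached 5.49 to 6.26, the 10 low-scoring embryos 3.88 to 4.73, and both embryos left out of the ranking lay below every ranked embryo.

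High-scoring embryos were 7 SER and 3 control embryos, low-scoring embryos were 5 of each, and the 9 middle embryos were 2 SER and 7 control embryos. The share of SER embryos was not distinguishable between the high and low classes (Fisher's exact test, two-sided, p = 0.650). Among the 29 ranked embryos, the 14 SER embryos averaged 5.22 (SD 0.73) and the 15 control embryos 5.13 (SD 0.61), a difference of 0.09 within the spread (permutation test, two-sided, p = 0.720). The treatment groups overlapped in score, and treatment was a covariate in the comparison of the classes across genes.

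2 high-scoring libraries, control replicates 1 and 3, stood apart from the other 18 compared. Across genes, the slope of log2(CPM + 1) on log2 exon length was -0.18 and -0.24 in them and 0.07 to 0.31 in the others, and the slope per 10 percentage points of GC content was -1.14 and -1.40 against -0.77 to -0.01. Cytoplasmic ribosomal protein genes took 3.51% and 3.26% of their counts, against 0.368 to 2.41% elsewhere. They scored 6.26 and 6.08, and the results that rest on them are given with and without them. Among the 29 ranked embryos, the next steepest GC slopes were also in replicates numbered 1 to 3. These were SER replicate 2 (-0.77), control replicate 2, a middle embryo (-0.70), and SER replicates 3 (-0.44) and 1 (-0.42). SER replicate 13 followed at -0.41. What the replicate numbers share was not tested. The total counts of the 20 libraries ran from 642321 to 3088396, with means of 1657770 in the high and 1253130 in the low class (permutation test, two-sided, p = 0.129, adjusted p = 0.333 over 10 measures).

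The scoring genes did not vary in parallel. Zfp352 (chr4:90218820-90225702) ran from 108 to 559 CPM with a median of 295 in high-scoring embryos, and from 73.8 to 241 with a median of 113 in low-scoring embryos. Zscan4d (chr7:11161374-11166159) ran from 63.0 to 389 CPM with a median of 84.3, against 27.3 to 124 with a median of 52.6. Tdpoz3 (chr3:93826020-93827117) spanned 7.80 to 112 CPM with a median of 38.5, against 0 to 20.8 with a median of 6.53. Even for the genes that defined the classes, the single-gene ranges overlapped.

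Tcstv3 (chr13:120316878-120318178) had a median of 117 CPM, range 24.6 to 634, in the high class and 26.9, range 14.8 to 86.0, in the low class. Tcstv1 (chr13:119893388-119894785) had medians of 76.3 and 48.1 CPM, Zscan4c (chr7:11005745-11010547) of 18.3 and 7.71, Zscan4f (chr7:11397915-11402318) of 13.5 and 5.62, and Tdpoz4 (chr3:93796398-93797510) of 40.4 and 28.6. The difference of class means on the log2(CPM + 1) scale ran from 1.01 for Tdpoz4 to 2.83 for Tdpoz3. These genes have close copies: 87.1% of the 45-base stretches of Zscan4c, 87.8% of Zscan4f, 52.7% of Zscan4d and 68.7% of Tdpoz3 also occur in another gene's transcript, so how reads were shared among copies is uncertain.

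Across the 29 embryos, Pearson's r between scoring genes ran from -0.28 for Zscan4f and Tdpoz4 to 0.65 for Zscan4d and Zscan4f. The mean over the 3 Zscan4 genes and the mean over the other 5 correlated at r = 0.12 and Spearman's rho = 0.24 over these 29 embryos, which share libraries and depth differences, and at 0.08 and 0.21 over the 27 without control replicates 1 and 3. The classes therefore held embryos of unlike composition. SER replicates 12, 13 and 14 had Zscan4 means of 5.23 to 6.78 with other means of 5.50 to 5.64, above the low-class range of 4.05 to 5.39. The other 4 high-scoring SER embryos had Zscan4 means of 3.96 to 4.66, within the low-class range of 3.43 to 4.79, and other means of 6.52 to 7.09. The 3 high-scoring control embryos had 4.68 to 5.41 and 6.502 to 7.21.

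**Figure D2:**
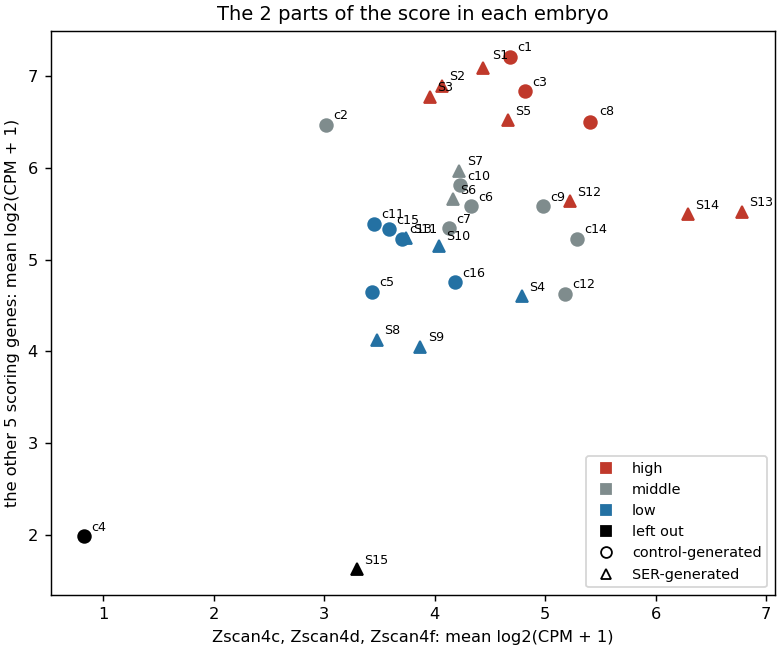
Mean log2(CPM + 1) of the 3 Zscan4 genes against that of the other 5 scoring genes, for each of the 31 embryos, including those left out of the ranking. SER replicates 12, 13 and 14 had Zscan4 means of 5.23 to 6.78 and other means of 5.50 to 5.64, both above the low class. The other 4 high-scoring SER embryos had Zscan4 means within the low-class range and other means of 6.52 to 7.09.

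Rn45s, which carries ribosomal RNA precursor reads, moved with this split only within the high-scoring SER embryos. It took 0.422 to 0.497% of counts in SER replicates 12, 13 and 14, 3.04 to 6.34% in the other 4 high-scoring SER embryos, 0.986 to 2.04% in the high-scoring control embryos and 0.896 to 2.16% in low-scoring embryos. The middle SER embryos, replicates 6 and 7, had 6.87% and 3.22%, and the middle control embryos 0.885 to 2.19%. The part of Rn45s in the results was not tested.

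Across all other genes, 101 of 10344 genes tested were higher in high-scoring embryos (0.976%) and 14 were lower (0.135%) at an adjusted p below 0.1 (edgeR's quasi-likelihood test with treatment as a covariate, Benjamini-Hochberg adjustment). Genes that rose included further burst genes, oocyte genes, Obox genes and ribosomal protein genes. The balance of directions depended on the test, with 280 higher and 151 lower by DESeq2 and 225 higher and 255 lower by limma voom. By edgeR's test, ranking by the Zscan4 genes alone gave 0 calls among 9622 genes, 622 having an unadjusted p below 0.05. Ranking by the other scoring genes gave 1571 calls among 9145. Without control replicates 1 and 3, 0 of 11194 genes were called (0%), 639 having an unadjusted p below 0.05 by the same test. The 115 genes all kept their direction there, with the median log2 difference of the higher genes at 1.19 instead of 1.74 and of the lower genes at -1.15 instead of -1.51. They had been selected in a set that includes all embryos of this refit, so the kept direction is no separate support. Control replicate 1 or 3 was the most extreme high-scoring embryo for 87 of the 101 higher and 13 of the 14 lower genes, a count not taken over all genes tested.

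**Figure D3:**
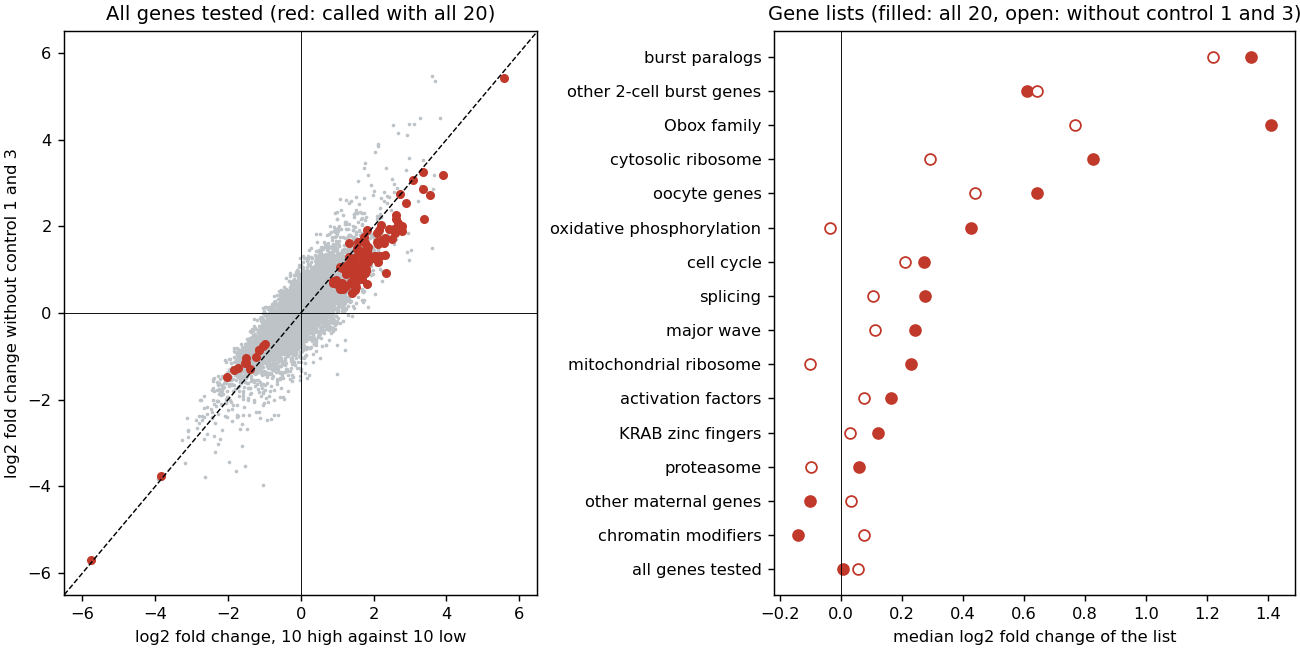
Log2 difference between high- and low-scoring embryos with all 20 embryos against that without control replicates 1 and 3, for each gene tested in both, with called genes and list medians marked. All 115 called genes lie on the same side of 0 in both, the higher ones with a median of 1.74 with and 1.19 without these embryos. Both estimates share most of their embryos, and the genes were selected by the first, so the shared side is no separate support.

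Within the high class, SER replicates 12, 13 and 14 were often the least raised for the higher genes. 1 of them was the lowest high-scoring embryo for 69 of the 101 higher genes, and they were exactly the 3 lowest for 38. For the 14 lower genes, 1 of them was closest to the low class in 5 cases and they were exactly the 3 closest in 0. Middle embryos had a median between those of both classes for 85 of the 101 higher and all 14 lower genes. Their own rank correlation with the score had the matching sign for 66 and 5 of these, respectively. None of these counts was taken over all genes tested, so whether they are particular to the called genes was not tested.

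Of multicopy burst genes that were not used in the score, 4 of 13 tested rose (30.8%, against 0.976% of all genes tested) and 0 fell. Their median log2 difference was 1.34, against 0.01 over all genes tested. This median was 1.22 without control replicates 1 and 3. Of the 4 that rose, Tdpoz8, AF067061 and AF067063 lie within 1 Mb of a scoring gene. All 4 share sequence with other genes, Tdpoz8 most with the scoring gene Tdpoz4. Their rise is thus not separate from the genes behind the ranking. Of burst genes outside those multicopy families 5 of 28 rose (17.9%), with a median of 0.61, and of 0.64 without these embryos. Trim43a and Trim43b, which share sequence with each other, were 2 of these 5.

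Usp17lb (chr7:104840257-104842603), a member of a deubiquitinase family, ran from 437 to 851 CPM with a median of 559 in high-scoring embryos and from 126 to 477 with a median of 198 in low-scoring embryos. All but 1 high-scoring embryo lay above every low-scoring embryo. The log2 difference was 1.33 ± 0.28 (SE, adjusted p = 0.0265), and 1.28 without control replicates 1 and 3. Tdpoz8, a BTB-domain paralog of the scoring genes, ran from 32.9 to 180.3 CPM with a median of 109.7, against 6.23 to 76.8 with a median of 28.4. Its classes overlapped, and 17.3% of its 45-base stretches occur in other genes, most in the scoring gene Tdpoz4, with a log2 difference of 1.57 ± 0.41 (adjusted p = 0.0754), and 1.63 without.

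AF067061 ran from 0.391 to 488 CPM with a median of 110.1 in high-scoring embryos, against 0 to 52.6 with a median of 21.0. The classes overlapped, since 1 high-scoring embryo was near 0. The log2 difference was 2.57 ± 0.60 (adjusted p = 0.0492), and 1.94 without control replicates 1 and 3. Its neighbour AF067063 rose by 2.02 ± 0.47 (adjusted p = 0.0476), and by 1.32 without, but 73.2% of its 45-base stretches occur in another gene, so its own level is uncertain. BC147527, on the same stretch of chromosome 13, had medians of 262 and 10.2 CPM, ranges 4.78 to 599.8 and 3.69 to 46.8, and a log2 difference of 3.92 ± 0.68 (adjusted p = 0.0104), and 3.18 without. Like AF067061 and AF067063, it lies within 1 Mb of a scoring gene.

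Among the other burst genes, Mbd3l2, a relative of the methyl-CpG-binding protein Mbd3, ran from 189.9 to 704 CPM with a median of 338, against 73.7 to 239 with a median of 139.5. In 8 of the 10 high-scoring embryos it lay above every low-scoring embryo. Its log2 difference was 1.55 ± 0.30 (adjusted p = 0.0203), and 1.105 without control replicates 1 and 3. Ddit4l, a regulator of mTOR signalling, and Olfr376, annotated as an olfactory receptor, rose by 1.86 ± 0.42 (adjusted p = 0.0417) and 3.34 ± 0.78 (adjusted p = 0.0476), and by 1.53 and 3.25 without. Zscan4a, a further Zscan4 copy, had a log2 difference of 1.00 ± 0.49 that did not pass the test (adjusted p = 0.418).

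The gene with the lowest p, singled out after its values were seen, was Zfp54 (chr17:21423227-21435640), a zinc-finger gene. It ran from 83.2 to 423 CPM with a median of 155 in high-scoring embryos and from 15.4 to 73.5 with a median of 54.0 in low-scoring embryos. The classes did not overlap, while the middle embryos had a median of 51.4 CPM. The log2 difference was 2.11 ± 0.34 (adjusted p = 0.00779), and 1.64 without control replicates 1 and 3. Only 0.906% of its 45-base stretches occur in another gene. A list of higher-numbered Zfp genes, which does not include it, had 0 of 106 called and a median of 0.12. Of all genes tested, 0.976% were called higher and 0.135% lower.

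**Figure D4:**
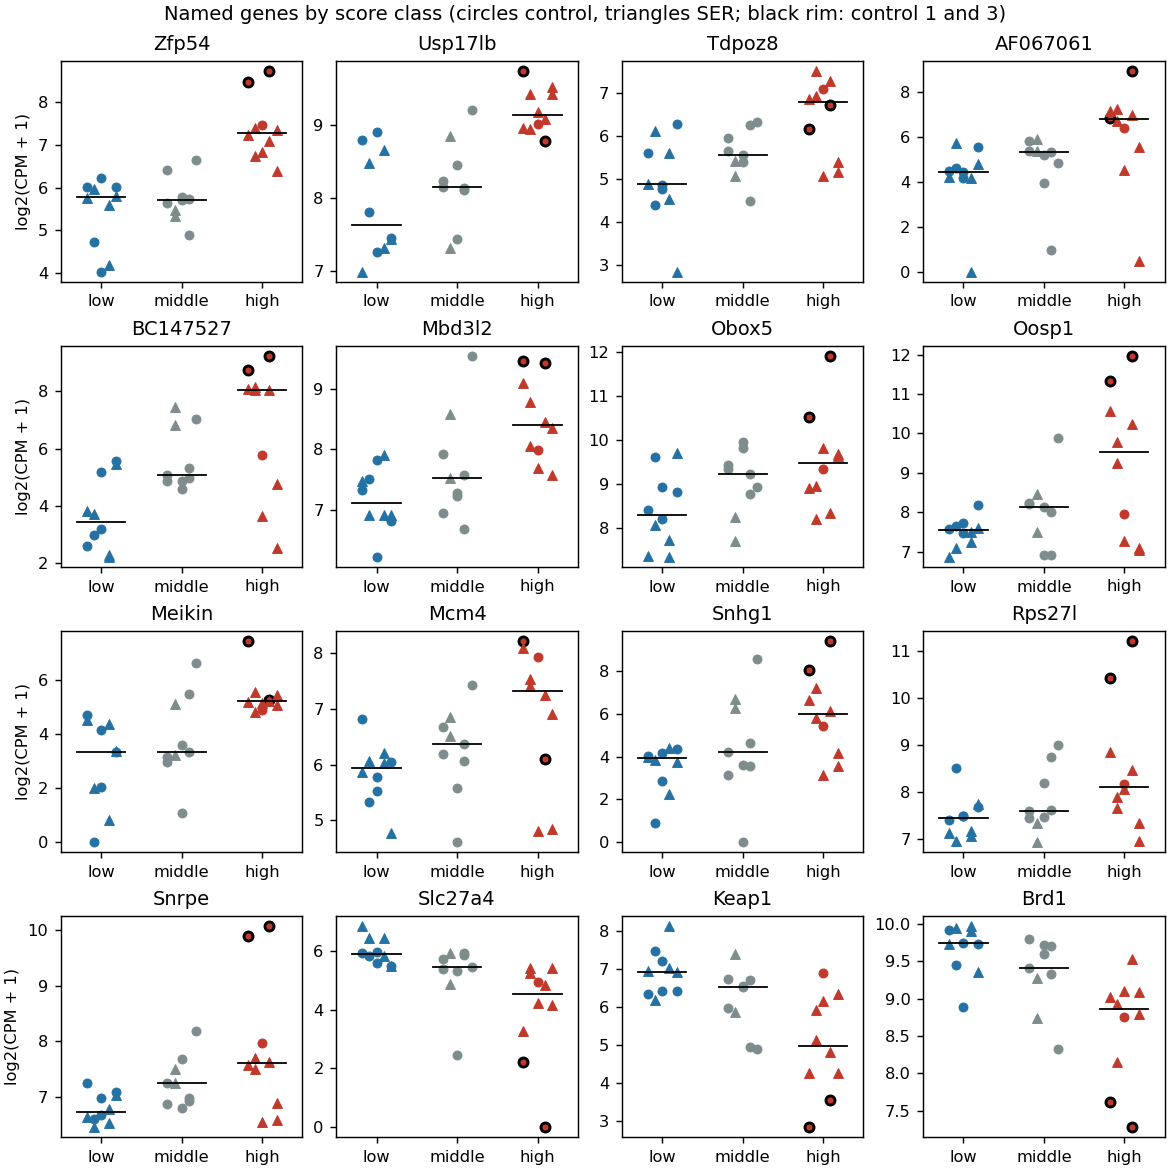
CPM on a log scale of 16 named genes in the low, middle and high score classes, with points for embryos, bars for medians and black rims for control replicates 1 and 3. Zfp54 and Meikin were higher in every high-scoring than in any low-scoring embryo, and Slc27a4 was lower in every high-scoring embryo.

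Of activator and zygotic factor genes other than the burst, 2 of 35 were higher (5.71%, against 0.976% of all genes tested), with a median of 0.16. Both were Obox genes. All 6 Obox genes tested had positive estimates, with a median of 1.41, and of 0.77 without control replicates 1 and 3. Obox5, whose promoter is given above, ran from 294 to 3816 CPM with a median of 717, against 162 to 834 with a median of 316, overlapping classes with a log2 difference of 1.46 ± 0.37 (adjusted p = 0.0625), and 0.84 without. Obox1 differed by 1.57 ± 0.42 (adjusted p = 0.0833), or 0.83 without, and 60.3% of its 45-base stretches occur in another gene. Control replicate 4 and SER replicate 15, left out of the ranking, both had more Obox1 than any low-scoring embryo (567 and 306 CPM). Obox5 had 1676 and 568 CPM there, above every low-scoring embryo only in control replicate 4. Of a list of the major wave (heat shock, nucleolar and ribosome biogenesis genes) 1 of 84 was called (1.19%). It was Taf1d, a subunit of an RNA polymerase I factor, at 1.53 ± 0.36 (adjusted p = 0.0536), and 1.29 without control replicates 1 and 3. The median of that list was 0.24, and 0.11 without these embryos.

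Genes of the oocyte, whose RNA is stored maternally, were also among those that rose. Of 78 tested 9 rose (11.5%, against 0.976% of all genes tested) and 0 fell, with a median log2 difference of 0.64, and of 0.44 without control replicates 1 and 3. Oosp1, which encodes a secreted oocyte protein, ran from 129.6 to 3983 CPM with a median of 745, against 116 to 291 with a median of 185. The classes overlapped at the lower end, and the log2 difference was 2.78 ± 0.47 (adjusted p = 0.00903), and 1.88 without. Its neighbour Oosp3, named after its values were seen, reached 2325 and 6061 CPM in control replicates 1 and 3, and its difference fell from 1.81 ± 0.44 (adjusted p = 0.0539) to 0.68 without them. Of the 9 oocyte genes that rose, all except Oosp1 and Oosp3 were also above every low-scoring embryo in both embryos left out of the ranking.

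Fbxw19 and Fbxw24, F-box genes of an oocyte-expressed cluster on chromosome 9, rose by 1.79 ± 0.37 (adjusted p = 0.0265) and 1.55 ± 0.31 (adjusted p = 0.0203). They differed by 1.25 and 1.00 without control replicates 1 and 3. Meikin, which protects centromeric cohesion in meiosis I, ran from 27.5 to 175 CPM with a median of 36.3, against 0 to 25.03 with a median of 9.22. All 10 high-scoring embryos lay above every low-scoring embryo (log2 difference 2.31 ± 0.57, adjusted p = 0.0611), and the difference was 1.73 without control replicates 1 and 3. The share of counts taken by all oocyte genes did not separate the classes, at 6.24 ± 2.43% (SD, n = 10) and 5.71 ± 2.16% (SD, n = 10; permutation test, two-sided, p = 0.611). Genes for storage, translation and decay of maternal RNA were called in 0 of 58 cases, with a median of -0.10, and of 0.03 without these embryos. Over all genes tested, 0.976% were called higher and 0.135% lower.

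Cytoplasmic ribosomal protein genes were shifted to higher values more with the libraries that stood apart than without them. Of 82 tested 6 rose (7.32%, against 0.976% of all genes tested). Positive estimates were found for 79, with a median of 0.83, against 66 with a median of 0.29 without control replicates 1 and 3. Rps27l, a ribosomal protein paralog induced by p53, had 1377 and 2378 CPM in these embryos and 123.5 to 463 in the other high-scoring embryos. Its log2 difference was 1.67 ± 0.37 (adjusted p = 0.0348), and 0.79 without them. Rpl23, a protein of the large subunit, rose by 1.78 ± 0.44 (adjusted p = 0.0611), and by 1.17 without.

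Mitochondrial ribosomal protein genes (1 of 67 higher, 1.49%, median 0.23) and oxidative phosphorylation genes (1 of 74, 1.35%, median 0.43) changed the sign of their medians without these embryos, to -0.10 and -0.03. Splicing genes had 4 of 78 higher (5.13%, against 0.976% of all genes tested) and a median of 0.27, and of 0.10 without. Snrpe, a core protein of spliceosomal snRNPs, had 946 and 1074 CPM in control replicates 1 and 3 against 93.1 to 251 in the other high-scoring embryos. Its log2 difference of 1.55 ± 0.34 (adjusted p = 0.0355) was 0.77 without them.

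The 12 largest increases included Snhg1, Snhg12, Zfas1 and Snhg5, which host small nucleolar RNAs, a group noticed in the results and not a list that was tested. Snhg1 ran from 7.88 to 676 CPM with a median of 62.0, against 0.874 to 20.2 with a median of 14.0. In 7 of the 10 high-scoring embryos it lay above the low class, with a log2 difference of 3.38 ± 0.63 (adjusted p = 0.016), and 2.16 without control replicates 1 and 3. Snhg12 rose by 3.07 ± 0.66 (adjusted p = 0.0285), Zfas1 by 2.67 ± 0.49 (adjusted p = 0.016) and Snhg5 by 2.59 ± 0.51 (adjusted p = 0.0203). Snhg12 was 3.07 also without these embryos, whereas Zfas1 and Snhg5 were 2.09 and 1.85. The further hosts Snhg3 and Gas5, named after their values were seen, rose by 2.22 ± 0.58 (adjusted p = 0.0772) and 1.75 ± 0.48 (adjusted p = 0.0969), and by 1.68 and 0.93 without.

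Further genes that rose were Eva1a, a regulator of autophagy, at 2.73 ± 0.55 (adjusted p = 0.0237), Mcm4, a subunit of the replicative helicase, at 1.54 ± 0.38 (adjusted p = 0.0611), and Ddit3, which encodes the stress factor CHOP, at 1.73 ± 0.42 (adjusted p = 0.0537). These were 2.76, 1.49 and 1.43 without control replicates 1 and 3, so Eva1a and Mcm4 hardly moved. Of cell cycle genes 1 of 84 was called higher (1.19%), of p53 and DNA damage genes 1 of 42 (2.38%) and of lineage and epithelial genes of later cleavage stages 1 of 64 (1.56%). The share over all genes tested was 0.976%. The medians of these lists were 0.27, 0.05 and -0.06. These medians were 0.21, 0.0021 and 0.25 without control replicates 1 and 3, so that of the later cleavage genes changed sign.

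The 12 lists without a called gene (proteasome, maternal RNA control, replication histones, DNA methylation, chromatin modifiers, Zfp genes, glucose and pyruvate use, genes the study named, cumulus cells, sperm, Y-linked genes and X inactivation) held 380 tested genes. Of these, 41 (10.8%) had an unadjusted p below 0.05 by edgeR, against 12.1% of all genes tested. DESeq2 called 11 of them and limma voom 16. Besides maternal RNA control, the medians of proteasome genes (0.06) and chromatin modifiers (-0.14) changed sign without control replicates 1 and 3, to -0.10 and 0.08.

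The 14 genes that fell had no member in any list. Slc27a4, a fatty acid transporter, ran from 0 to 42.4 CPM with a median of 22.6 in high-scoring embryos and from 43.6 to 115 with a median of 58.9 in low-scoring embryos. The classes did not overlap, and the log2 difference was -1.72 ± 0.47 (adjusted p = 0.0969), and -1.28 without control replicates 1 and 3. Keap1, the adaptor that targets Nrf2 for degradation, had medians of 30.4 and 120.5 CPM, ranges 6.14 to 117 and 71.9 to 277, and a difference of -1.51 ± 0.42 (adjusted p = 0.0969), and -1.16 without. Brd1, a subunit of histone acetyltransferase complexes, had medians of 465 and 853 CPM, ranges 155 to 739 and 471 to 1000.1, and a difference of -0.99 ± 0.25 (adjusted p = 0.0611), and -0.72 without.

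Myh9, a non-muscle myosin heavy chain, fell by 1.51 (adjusted p = 0.0654), Upf1, the helicase of nonsense-mediated decay, by 1.04 (adjusted p = 0.0921), and Dapk3, a death-associated kinase, by 2.02 (adjusted p = 0.0964) on the log2 scale. Their differences were -1.03, -0.76 and -1.47 without control replicates 1 and 3.

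The called genes differed in length and base composition. Genes that rose had a median exon length of 2410 bases and 44.8% GC, against 4604 bases and 49.6% over all genes tested, and genes that fell had 6128 bases and 56.6%. Of the 99 annotated genes that rose, 79 were shorter and 81 less GC-rich than the respective median of all genes. With genes in 5 equal groups from the lowest to the highest GC content, the median log2 difference was 0.30, 0.19, 0.01, -0.18 and -0.40, and without control replicates 1 and 3 it was 0.16 in the lowest and -0.13 in the highest group.

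The GC slope per library was -0.54 ± 0.43 (SD, n = 10) in high- and -0.16 ± 0.10 (SD, n = 10) in low-scoring embryos (permutation test, two-sided, p = 0.00175, adjusted p = 0.0175 over 10 measures). Without these 2 embryos the difference was smaller, -0.36 against -0.16 (permutation test, p = 0.0064, adjusted p = 0.0640). With the GC slope as a covariate, edgeR's test called 0 genes, 315 having an unadjusted p below 0.05, and all 115 kept their direction, with medians of 0.88 for the higher and -0.87 for the lower genes. The medians of the multicopy and other burst lists were then 1.11 and 0.63, of oocyte genes 0.29 and of cytoplasmic ribosomal protein genes 0.22. The 115 genes had been selected in these same embryos, so their kept direction is no separate support. The remaining 7 measures (genes detected at full and at equal depth, length slope, and shares of ribosomal, cumulus, sperm and Rn45s counts) had adjusted p of at least 0.333.

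**Figure D5:**
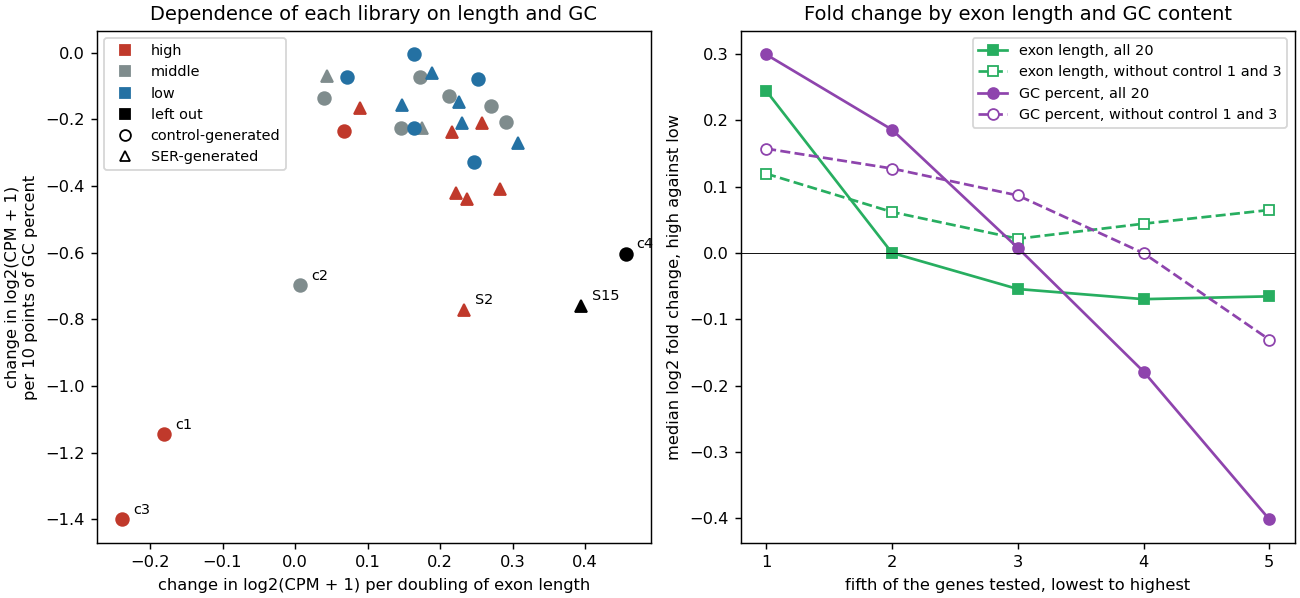
Slopes of each library's expression on gene length and GC content by score class, and the median log2 difference between classes in each of 5 equal groups of genes by length and by GC content, with and without control replicates 1 and 3. The GC slopes averaged -0.54 in high- and -0.16 in low-scoring embryos, and the difference between classes fell from 0.30 in the least to -0.40 in the most GC-rich group.

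With the score as a continuous measure over all 29 ranked embryos, 356 of 10515 genes rose with it (3.39%) and 70 fell (0.666%). Those that rose included 27 of 82 cytoplasmic ribosomal protein genes, 13 of 78 oocyte genes, 9 of 28 other burst genes and 7 of 13 multicopy burst genes. Over the 27 embryos without control replicates 1 and 3, 8 genes rose and 0 fell. Slopes are given in log2 units over the difference between the mean scores of the high and low classes, not per unit of score. The 8 genes were Zfp54 (1.67, adjusted p = 0.00792), Tdpoz8 (1.91, adjusted p = 0.0337), Usp17lb (1.34, adjusted p = 0.0665), Eva1a (2.86, adjusted p = 0.0751), Urml, Spopfm2, Hexim1, an inhibitor of the elongation factor P-TEFb, and AA623943. The last 4 were named after their values were seen.

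The 2 embryos left out of the ranking lay on both sides of the low class for the called genes. Of the 101 genes that rose, 37 (36.6%) were in both of them below every low-scoring embryo, against 20.9% of all genes tested, and 18 had no count in either. Another 12 (11.9%) were above every low-scoring embryo in both, near the 9.08% of all genes tested. They were the oocyte genes Fbxw14, Fbxw19, Fbxw24, Fbxw28, H1f8, Ooep and Slbp, and Obox1, Accsl, Bpgm, D6Ertd474e and Rgs2. Fbxw24 had 739 and 2416 CPM in control replicate 4 and SER replicate 15, against 83.0 to 152 in the low class. Of the 14 genes that fell, 10 were below and 0 above every low-scoring embryo in both. Oocyte genes took 17.1% and 9.66% of the counts of these embryos, and cytoplasmic ribosomal protein genes 0.136% and 0.0985%.

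Holding the score constant, the comparison of SER with control embryos called 0 of 8564 genes (0%), with 661 at an unadjusted p below 0.05 by edgeR and 88 called by DESeq2. The lowest adjusted p was 0.164, for Ggct, which acts in glutathione turnover, at -1.04, and Hpf1, a cofactor of PARP1, at -0.96. Kdm2b, a histone demethylase that the study named, had a difference of 1.02 ± 0.23 (adjusted p = 0.228), and its difference between score classes was 0.40 (adjusted p = 0.635). Without the score in the model, edgeR also called 0 of 8564 genes between SER and control embryos, and the difference for Kdm2b was again 1.02. DESeq2 was not run without the score, so the part of the score in its calls was not tested.

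The difference between high and low scores depended on treatment for 19 of 10344 genes (0.184%; interaction of class and treatment, edgeR's quasi-likelihood test), all with a larger difference in control embryos. Cox6b2, a cytochrome c oxidase subunit, had 1377, 2092 and 234 CPM in the high-scoring control embryos 1, 3 and 8, and 57.3 to 221 CPM in the 7 high-scoring SER embryos. Low-scoring embryos had 106.8 to 229 CPM in control and 93.2 to 309.8 in SER embryos. The interaction for Cox6b2 was -3.69 ± 0.66 (adjusted p = 0.0505). Without control replicates 1 and 3, which left 1 high-scoring control embryo that was assumed to vary like the other groups, it was -1.05, and 0 of 11194 genes passed, 492 having an unadjusted p below 0.05.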

How the data were processed

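Single-embryo Smart-seq3 libraries of 16 control and 15 SER embryos were analysed from the table of raw gene counts that the authors deposited. By the study's methods, 5′ reads with molecular identifiers were separated from internal reads, 5′ reads that aligned uniquely were deduplicated by identifier, internal reads by Picard, and both were merged and counted per gene. The submitters' processing notes name STAR, Picard, featureCounts, DESeq2 and mm10, with versions not given in the sources used here. The study corrected its 3 batches with ComBat-seq, but the labels do not name an embryo's batch, so none was modelled. Counts of near-identical genes may be split between copies. Of the table's columns, 0 lacked a sample.

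The members and gene lists were chosen with earlier results of these data known. Scores used CPM from column totals with a pseudocount of 1. The classes were compared by edgeR 4.0.16 (R 4.3.3; TMM, filterByExpr, quasi-likelihood test, treatment as covariate) over all genes except the 8 scoring genes, with Benjamini-Hochberg adjustment and calls at an adjusted p below 0.1, the study's threshold. Differences are log2 fold changes, high minus low. The self-check on simulated counts recovered changed genes and made no calls without change. Its counts were drawn independently around a common mean per gene. They had no GC or length slope, no batch and no classes chosen by a readout, so the check cannot tell how these affect the calls. DESeq2 1.42.0 and limma 3.58.1 served as alternatives. Single values were compared by permutation tests with 100000 resamples in Python 3.11.15 or R.

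Genes were named by rule: the scoring genes, the 12 largest increases and decreases among called genes with an average log2 CPM of at least 5, and up to 3 called genes by p in each list, and members of the activation and burst lists. Zfp54, Gas5, Snhg3, Oosp3, Fbxw14, Urml, Spopfm2, Hexim1 and AA623943 were named after their values were seen. Positions, exon lengths and GC content came from GENCODE vM21 (GRCm38), with 20013 of 20544 symbols matched directly, 333 by an older symbol and 198 not found. The depth limits rare genes, and counting error is part of the spread between embryos. A gene that the naming rule selected is not reported here.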

Additional observations from a re-analysis of the deposited data

Results flagged for a closer look

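In a search of 160 groups of 10 embryos for a highest or lowest value far from the others, 17 stood out, and chance alone gives about 1 in 20. The number given is the gap to the nearest embryo divided by the range of the class. Among high-scoring embryos, SER replicate 13 stood out for Tdpoz4 (0.526), Obox6 (0.539) and Spopfm2 (0.510), SER replicate 12 for Ankrd22 (0.487) and AF067061 (0.477), control replicate 1 for Meikin (0.715) and Cep85l (0.638), and control replicate 3 for Obox2 (0.512). Among low-scoring embryos, SER replicate 9 stood out for AF067061 (0.724), Ddit4l (0.477) and Pramef25 (0.610), SER replicate 11 for Tcstv1 (0.503), SER replicate 4 for Uqcrh (0.647), control replicate 13 for Cep85l (0.604), and control replicate 16 for Rps27l (0.497) and Gas5 (0.609). Control replicate 5, a low-scoring embryo, stood out in the share of counts from cumulus cell markers (0.887), which was 0.174% there.

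The difference between score classes itself differed between control and SER embryos for Cox6b2 (interaction -3.69, adjusted p = 0.0505), Cks2, which binds cyclin-dependent kinases (-2.86, adjusted p = 0.0505), and Psmb2, a proteasome subunit (-3.63, adjusted p = 0.0899), by edgeR's quasi-likelihood test. Cks2 had 2142 and 3297 CPM in control replicates 1 and 3, against 762 in control replicate 8 and 249.6 to 663 in the high-scoring SER embryos. Leaving out control replicates 1 and 3 left 1 high-scoring control embryo, assumed to vary like the other groups, so a lost call says little there. The interactions were then -1.05, -1.20 and -1.66, each with an adjusted p of 0.954.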

How the results depend on the processing

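The 115 genes called depended on settings and embryos. The count was 49 with library totals instead of TMM (which moved the median of all genes to -0.11), 197 without a filter, 431 by DESeq2, 480 by limma voom, 33 without the treatment covariate, 76 for 7 against 7 embryos, 28 for 14 against 14, 426 with the continuous score, 39 when all 31 embryos were ranked, 249 in control and 0 in SER embryos alone (599 at p below 0.05), 0 with the Zscan4 score (622) and 1571 (960 higher, 611 lower) with the score without Zscan4. At an adjusted p below 0.05 it was 41. Leaving out 1 embryo gave 22 to 240: 22, 32, 201, 60, 68, 56 and 61 without control replicates 3, 1, 8, 5, 11, 13 and 15, and 240, 46, 71, 61 and 68 without SER replicates 13, 2, 1, 9 and 11. Chosen after seeing the data, leaving out control replicates 1 and 3 gave 0, also before ranking (572 at p below 0.05), the length slope, GC slope or both as covariates gave 0 (824, 315 and 449), and the continuous score over 27 embryos gave 8. The cause was not tested.

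Over all lists, the called members were 18 with library totals, 85 by DESeq2, 81 by limma voom, 12 without treatment, 11 for 14 against 14, 107 with the continuous score, 12 of 31 ranked, 0 with the Zscan4 score, 281 without Zscan4, 76 in control and 0 in SER embryos alone, 6 to 60 with 1 embryo left out, 0 without control replicates 1 and 3 or with a slope as covariate, 2 over 27 embryos and 16 at 0.05. Calls over all genes tested were 49 of 10344 with library totals, 431 of 10344 by DESeq2 and 480 of 10344 by limma voom. They were 426 of 10515 with the continuous score and 1571 of 9145 without Zscan4. The members tested in each setting are not given, so these counts are no result about the lists. SER against control with the score gave 88 by DESeq2 and 377 without a filter, and the interaction 307, 31 and, without control replicates 1 and 3, 0.

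Directions reversed as follows. The score difference between treatments was -0.012 without Zscan4. Without control replicates 1 and 3, detected genes differed by 35.8, the length slope by 0.00084 and the oocyte share by -0.39, and with 31 ranked by 26.3 genes and -1.36. With the Zscan4 score, Snhg12 was -0.31, Bex6 -0.70, Eva1a -0.35, Mrps6 -0.10, Obox6 -0.16 and Hexim1 -0.092. With 31 ranked, Rgs2 was -1.10, Obox1 -0.0092, Fbxw24 -0.44 and Obox2 -1.30. Obox2 was -0.17 with the GC slope and -0.070 with both, and Obox6 was -0.024 in SER embryos alone and -0.081 with the length slope.

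Control and SER embryos share replicate numbers. Deviations of 13 same-numbered pairs correlated at -0.27 to 0.36, with a median of 0.03. In 6 pairs r was above 0.1, and 4 of the 13 control embryos correlated best with the SER embryo of their own number. The labels name no pairing, so the numbers were not treated as pairing in the main comparison. Whether they mark a shared origin was not tested. With the replicate block, 0 genes and 0 list members were called (208 at p below 0.05), 110 of 115 genes kept their direction, and Rgs2 was -0.086, Obox1 -0.14, Uqcrh -0.16, Ddit3 -0.48 and Obox2 -0.14. The 115 genes had been selected in the same embryos.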

Other observations

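Of 99 genes that rose and had a position, 22 (22.2%) had another of them within 1 Mb, against 12.7% of all 10311 genes tested with a position. Of these 99 genes, 5 lay within 1 Mb of a scoring gene, against 25 of all 10311. They were AF067061, AF067063, BC147527, Spopfm2 and Tdpoz8. The others included Fbxw14, Fbxw19, Fbxw24 and Fbxw28 on chromosome 9, Oosp1 and Oosp3 on chromosome 19, Obox1 and Obox5 on chromosome 7, and Trim43a and Trim43b on chromosome 9. Some of these are copies that share sequence, as 50.0% of the 45-base stretches of Trim43a do, so their counts are not separate measurements.

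Tacr3, which encodes the neurokinin B receptor, rose by 2.43 ± 0.45 (adjusted p = 0.016), Bex6 by 2.88 ± 0.68 (adjusted p = 0.0492), Ankrd22 by 2.77 ± 0.65 (adjusted p = 0.0492) and Rgs2, a regulator of G-protein signalling, by 2.61 ± 0.68 (adjusted p = 0.0772). Without control replicates 1 and 3 the differences were 1.93, 2.53, 2.01 and 2.25.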
